A study of Mus musculus with 12 samples.

Results

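The contrast described here asks, for each gene, whether loss of a microRNA cluster had the same effect in fat as in liver. It is the KO minus WT effect in fat minus the KO minus WT effect in liver, and it uses all 12 of the 12 libraries of the study, chosen by the genotype and tissue in their column names. The 4 groups of 3 libraries were WT liver, KO liver, WT fat and KO fat. All came from male mice aged 52 weeks and fasted for 12 hours, and the fat was inguinal white adipose tissue (WAT). KO mice were labelled as knockout for the miR-322, miR-503 and miR-351 cluster, and WT mice as wild type. The labels give neither the strain nor the type of allele, and they do not say whether libraries of a group, or libraries of both tissues with the same number, came from separate animals. The p-values therefore measure the spread between these samples, which may be technical.

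The cluster lies on the X chromosome. MicroRNAs guide the silencing complex to messenger RNAs through their seed, the short stretch near the 5′ end that pairs with sites in 3′ untranslated regions, and loss of a microRNA can release its targets. The miR-322 seed is that of the miR-15/16 family, which is known for restraining cell cycle regulators. Liver and fat share the pathways that make, store and burn fatty acids but use them differently in fasting, when fat cells release fatty acids and the liver oxidises them and makes ketone bodies.

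The mature 5p sequences of the 3 microRNAs of the cluster, from RefSeq on GRCm38.p6, define the seeds used below. Capitals mark the seed, bases 2 to 8 counted from the 5′ end. All are on the minus strand.
mmu-miR-322-5p, chrX:53054306-53054327: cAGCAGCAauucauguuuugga
mmu-miR-503-5p, chrX:53054027-53054049: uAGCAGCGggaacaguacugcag
mmu-miR-351-5p, chrX:53053315-53053338: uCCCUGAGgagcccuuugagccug
The miR-322 and miR-503 seeds differ in their last base, and the miR-351 seed is unrelated to both.

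Reads over the hairpin genes of the cluster were few. Mir503 had 4, 4 and 8 counts in the WT liver libraries and 17, 21 and 10 in the WT fat libraries. Mir322 had 2, 1 and 0 counts in WT liver and 12, 10 and 15 in WT fat. Both had 0 counts in all 6 KO libraries, against a floor of 3 counts in 1 library. Mir322 was at or under that floor in WT liver too, so its loss could be read from these counts in fat but not in liver. These counts come from total RNA libraries, so they are no measure of the mature microRNAs. Reads over Mir351 were not lost: the WT and KO sums were 9 and 41 counts in liver and 33 and 146 in fat, and the difference of effects was −0.06 ± 0.53 on the log2 scale (SE, adjusted p = 1). C430049B03Rik, a noncoding RNA gene beside the cluster, had 6 counts in WT liver and 204 in KO liver, and 56 in WT fat and 1117 in KO fat, summed over 3 libraries. It rose in KO liver by 5.08 ± 0.51 and in KO fat by 4.33 ± 0.37 on the log2 scale, with adjusted p = 0.00178 and 0.000218 in edgeR's quasi-likelihood test. The call was lost in fat with fat fitted alone (adjusted p = 0.0708), and in liver with limma voom (0.079) and with a block by replicate number within tissue (0.111). The difference between those effects was −0.75 ± 0.69 (adjusted p = 0.669).

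Levels are given as CPM, the counts of a gene scaled to a fixed library total. Total counts per library lay between 14531438 and 15971178, and 19295 to 22963 genes had a count. The defining markers matched the labelled tissues: 11 hepatocyte markers summed to 117173 to 134104 CPM in liver, and 10 adipocyte markers to 19180 to 26420 CPM in fat and 41.7 to 97.5 CPM in liver. Liver transcripts were also read in fat. Alb, the serum albumin gene of hepatocytes, had 1863, 125 and 76.8 CPM in WT fat and 1977, 228 and 731 CPM in KO fat, so the first library of each fat group stood above the others of its group. The hepatocyte markers summed to 848 to 5399 CPM in WT fat and 2302 to 4674 CPM in KO fat. B cell and lymph node markers summed to 273 to 1411 CPM in WT fat and 643 to 1443 CPM in KO fat. In bulk tissue, fewer cells of a type and less RNA per cell cannot be told apart.

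Of 16857 genes tested among 54532 in the table, 0 (0%) passed an adjusted p of 0.05 in the difference by edgeR's quasi-likelihood test on all 12 libraries, and the lowest adjusted p was 0.159. An unadjusted p under 0.05 was found for 2255 genes (13.4%). Of these, 1160 (6.88%) had a higher KO minus WT effect in fat than in liver and 1095 (6.5%) a lower one. An even spread of p-values would give 842.85. DESeq2 called 199 of 11184 genes with an adjusted p (1.78%), 125 higher (1.12%) and 74 lower (0.662%). limma voom called 0 genes with 2090 at an unadjusted p under 0.05. The standard error of the difference had a median of 0.35 on the log2 scale, against 0.24 for the effect in liver and 0.23 in fat. With the same fit, 1 gene was called in liver (0.00593%) and 3 in fat (0.0178%), and all of them were higher in KO. The gene in liver was C430049B03Rik, which was also called in fat, together with Acly and Pth1r.

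Most of these genes had effects of opposite sign in the tissues, which a large difference favours by its construction. Of the 2255 genes, 1100 had a KO effect below 0 in liver and above 0 in fat, 1056 had the reverse, 63 were above 0 in both and 36 below 0 in both. Over all tested genes, 27.8% had the first combination and 30.2% the second, and the effects in liver and fat had a Spearman rho of −0.15 across genes (−0.00110 with the composition trend described below removed). By the libraries themselves, 370 genes (2.19%) had KO and WT libraries that did not overlap in either tissue and moved in opposite directions, 172 higher in KO fat and lower in KO liver (1.02%) and 198 the reverse (1.17%). Genes without overlap that moved in the same direction in both tissues numbered 71 (0.421%). Among the 199 DESeq2 calls, 114 had opposite directions without overlap.

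**Figure D1:**
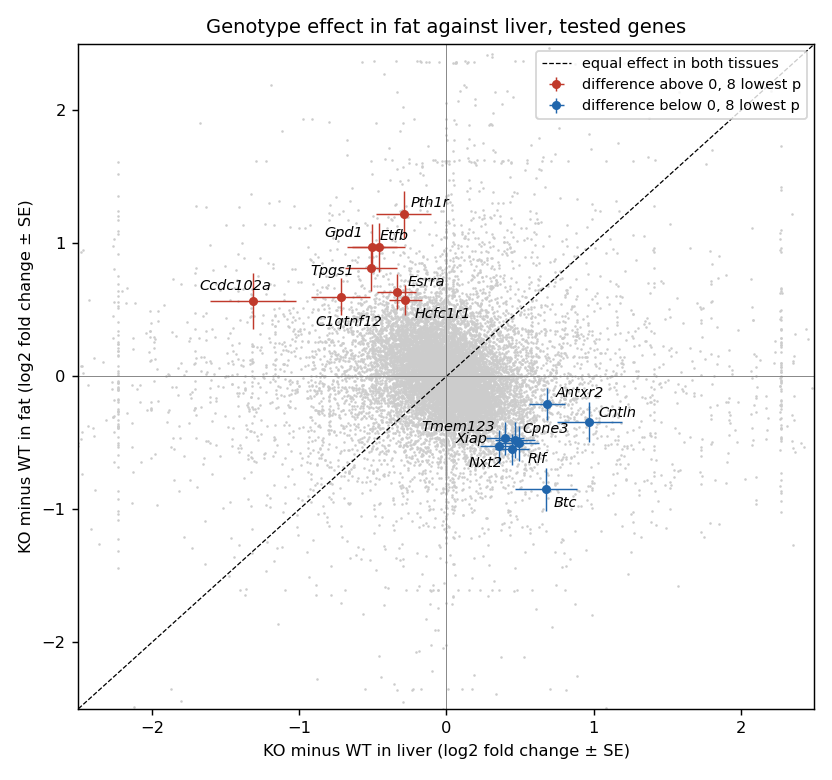
KO minus WT effect in liver (x axis) and in fat (y axis), log2 fold change, for the tested genes (grey). The 16 genes with the lowest p in the difference, 8 in each direction, are coloured and have bars of ± SE. They lie in the upper left and lower right of the plot, away from the dashed line of equal effects. Genes beyond the axes are not drawn.

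Etfb, on chr7:43444083-43457800, encodes the beta subunit of the electron transfer flavoprotein, which takes electrons from the acyl-CoA dehydrogenases of fatty acid oxidation. Its level was 29.7, 33.8 and 30.5 CPM in WT liver, 25.0, 19.1 and 20.6 in KO liver, 9.69, 10.6 and 8.53 in WT fat and 14.3, 21.5 and 20.2 in KO fat. All KO libraries were below the WT libraries in liver and above them in fat. The effects were −0.50 ± 0.17 in liver and 0.97 ± 0.18 in fat on the log2 scale, a difference of 1.47 ± 0.24 (adjusted p = 0.159 in edgeR's test and 0.000181 in DESeq2).

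Gpd1, on chr15:99717515-99725005, encodes the cytosolic glycerol-3-phosphate dehydrogenase that supplies the glycerol backbone of triglycerides. Its level was 395, 387 and 424 CPM in WT liver, 318, 275 and 261 in KO liver, 295, 486 and 484 in WT fat and 731, 851 and 878 in KO fat. The groups did not overlap in either tissue, KO being the lower in liver and the higher in fat. The difference of effects was 1.43 ± 0.26 (edgeR adjusted p = 0.159, DESeq2 adjusted p = 0.000181).

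Pth1r, on chr9:110722085-110747145, encodes the receptor of parathyroid hormone and its related peptide, which are known to drive lipolysis in fat cells. It had 9.41, 7.73 and 6.83 CPM in WT liver, 6.87, 6.20 and 6.01 in KO liver, 14.1, 11.3 and 12.0 in WT fat and 23.4, 33.2 and 29.4 in KO fat. The fat groups stood apart, while the liver groups overlapped at their edge. In fat it rose by 1.22 ± 0.18 (edgeR adjusted p = 0.0483), a call close to the threshold that 13 of 28 alternative fits made. It was lost, among others, with fat fitted alone (adjusted p = 0.291), with the trend on GC share and length removed (0.158), without WT_WAT2 (0.165) and without KO_WAT2 (0.241). The difference was 1.51 ± 0.26 (edgeR adjusted p = 0.159, DESeq2 adjusted p = 0.00020), so this difference came mainly from fat.

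Esrra, on chr19:6910977-6921813, encodes the oestrogen-related receptor alpha, a nuclear receptor that drives genes of mitochondrial energy metabolism. It had 38.7, 38.5 and 45.8 CPM in WT liver, 29.6, 36.4 and 28.8 in KO liver, 21.5, 26.4 and 25.7 in WT fat and 37.6, 37.3 and 38.7 in KO fat. KO was below WT in liver and above it in fat, with no overlap in either tissue. Its difference of 0.98 ± 0.19 (edgeR adjusted p = 0.159) was 0.93 once the trend on GC share and length had been taken out of every library. The other genes with the lowest p above 0 were Hcfc1r1, C1qtnf12 (a secreted protein of fat known as adipolin), Tpgs1 (a subunit of tubulin polyglutamylase) and Ccdc102a. Their differences were 0.85 ± 0.16, 1.32 ± 0.25, 1.33 ± 0.25 and 1.88 ± 0.36, and none had overlapping groups in either tissue. Liver levels were low for C1qtnf12, at 2.37 to 2.71 CPM in WT and 1.25 to 1.62 CPM in KO. They were also low for Ccdc102a, at 1.22 to 1.90 CPM in WT and 0.540 to 0.818 CPM in KO.

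Btc, on chr5:91357261-91402994, encodes betacellulin, a ligand of the epidermal growth factor receptor. It had 2.10, 1.42 and 1.76 CPM in WT liver, 2.84, 2.11 and 3.24 in KO liver, 40.3, 42.5 and 46.0 in WT fat and 24.7, 22.0 and 24.2 in KO fat. The fat groups stood far apart and the liver groups only just did not overlap. The effects were 0.68 ± 0.21 in liver and −0.85 ± 0.16 in fat, a difference of −1.53 ± 0.27 (edgeR adjusted p = 0.159, DESeq2 adjusted p = 0.000558).

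Nxt2, on chrX:142226770-142239692, encodes a cofactor of nuclear RNA export. It had 27.4, 28.2 and 32.3 CPM in WT liver, 38.6, 37.1 and 40.8 in KO liver, 29.1, 29.6 and 30.7 in WT fat and 22.5, 19.4 and 18.7 in KO fat. The KO libraries lay above the WT libraries in liver and below them in fat. The difference was −0.99 ± 0.17 (edgeR adjusted p = 0.159, DESeq2 adjusted p = 0.000228).

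Xiap, on chrX:42059679-42109656, encodes an inhibitor of caspases. It had 136, 101 and 105 CPM in WT liver, 138, 142 and 144 in KO liver, 217, 202 and 194 in WT fat and 163, 128 and 132 in KO fat. The groups did not overlap in either tissue, and the difference was −0.88 ± 0.18 (edgeR adjusted p = 0.194, DESeq2 adjusted p = 0.00408). The other genes with the lowest p below 0 were Rlf, Antxr2 (an anthrax toxin receptor that binds matrix proteins), Cpne3 (a calcium-dependent membrane-binding protein), Cntln (a centrosomal protein) and Tmem123. Their differences were −0.997 ± 0.19, −0.89 ± 0.17, −0.94 ± 0.19, −1.32 ± 0.27 and −0.86 ± 0.18. Of these, Antxr2 overlapped in fat, where its highest KO library of 98.5 CPM lay above the lowest WT library of 94.6 CPM. Cntln was low in liver, at 0.743 to 0.902 CPM in WT and 1.45 to 1.82 CPM in KO.

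All 16 genes kept the sign of their difference in all 29 alternative fits, and DESeq2 called all 16. The genes were picked by p from these same counts, so neither result is independent support. With the trends on GC share and transcript length removed, the differences were 0.36 to 1.29 in the 8 genes above 0 and −1.06 to −0.35 in the 8 below 0, with edgeR adjusted p from 0.387 to 0.712. In 9 of the 16 genes the difference was then more than 1.5 times smaller. Above 0 these were Pth1r at 0.99, C1qtnf12 at 0.83, Tpgs1 at 0.52 and Hcfc1r1 at 0.36. Below 0 they were Rlf at −0.60, Antxr2 at −0.59, Nxt2 at −0.49, Cpne3 at −0.49 and Xiap at −0.35. A fit added after seeing the data left out the first library of each fat group, the ones highest in Alb. In it edgeR called all 16, with adjusted p from 0.00776 to 0.0402. That fit called 713 genes in all, 515 higher and 198 lower. With the trends on GC share and transcript length also removed it called 64, 1 of the 16 among them.

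**Figure D2:**
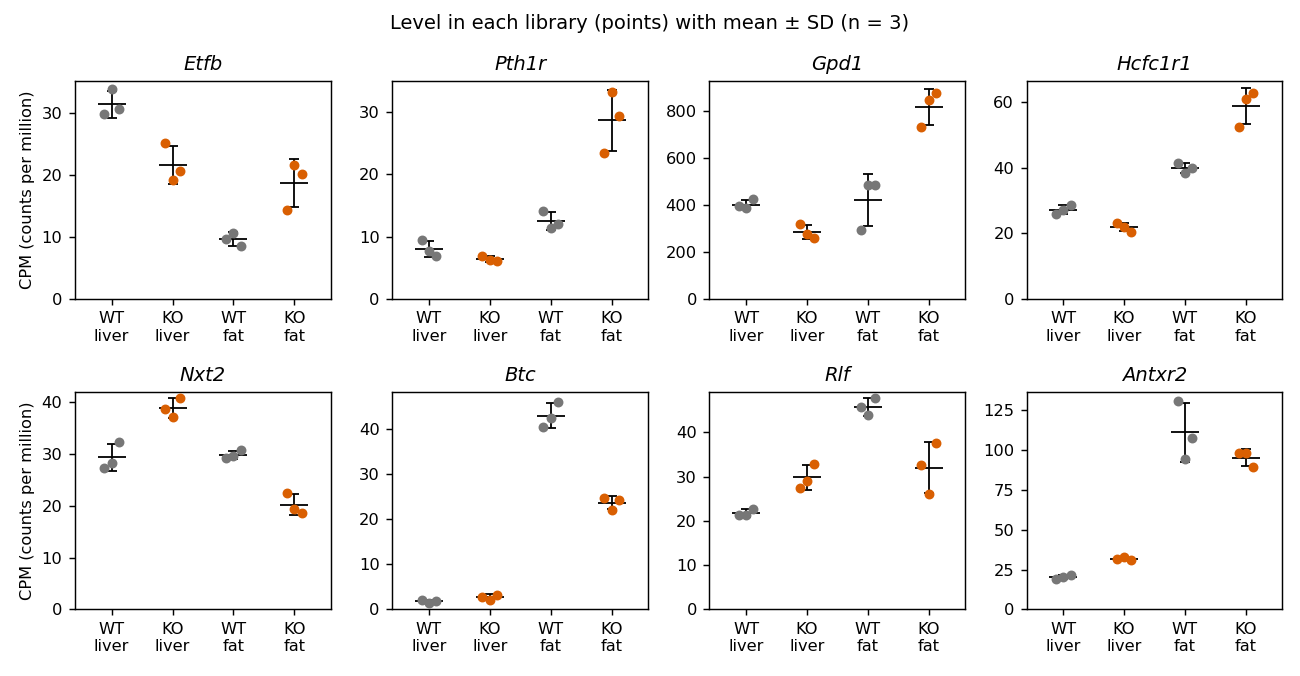
CPM in each library (points, grey for WT and orange for KO) with the group mean and SD (bars, n = 3), for the 4 genes with the lowest p in each direction of the difference. In the upper row KO lies above WT in fat and below it in liver, with an overlap for Pth1r in liver. In the lower row the order is reversed, with an overlap for Antxr2 in fat.

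The sign of the difference followed the base composition of the genes. The GC share of the longest transcript was 50.3% to 65.3% in the 8 genes above 0 and 35.5% to 43.7% in the 8 genes below 0, against a median of 49.4% over the tested genes. Across 16839 genes the difference had a Spearman rho of 0.47 with GC share and −0.16 with transcript length. These are descriptions across genes, which share libraries and are not independent. With the genes split by GC share into 5 classes of equal size, the median difference was −0.35, −0.18, −0.01, 0.15 and 0.38 on the log2 scale from the lowest share to the highest. The share of genes above 0 was 20.2% in the lowest class and 82.3% in the highest. The 2 components had opposite trends, with rho −0.35 in liver and 0.44 in fat.

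The trend could be read in single libraries. The slope of log2 CPM on GC share, relative to the tissue's mean and per 10 points, was 0.105, 0.0737 and 0.115 in WT liver, −0.0288, −0.0415 and −0.223 in KO liver, −0.0122, −0.100 and −0.236 in WT fat and −0.111, 0.210 and 0.249 in KO fat. In liver all KO slopes lay below the WT slopes. In fat, KO_WAT1 lay within the WT range while the other two KO libraries lay above it. The difference of the KO minus WT slopes, fat minus liver, was 0.427 (two-sided exact permutation test within tissues, p = 0.015, 0.04 adjusted over 4 library measures, 0.005 being the smallest p possible). Opposite GC trends in the tissues were already known from earlier results of these data, so this p-value is not independent support for them. The same contrast in the slope on transcript length, per doubling of length, was −0.0952 (exact permutation p = 0.02, adjusted p = 0.04). Log2 Alb CPM gave 1.62 (exact permutation p = 0.295, adjusted p = 0.295) and the share of counts from the mitochondrial genome −1.41 percentage points (exact permutation p = 0.08, adjusted p = 0.107).

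When the trends on GC share and on length were removed from every library, rho with GC share was −0.00149 and 0 genes were called by edgeR, with 1175 genes (6.97%) at an unadjusted p under 0.05. DESeq2 then called 31 genes, of which 22 were among its 199 and 177 of the 199 were not called. Genes with opposite directions and no overlap numbered 177 (1.05%), and those with the same direction 119 (0.706%). The removal also takes out any effect of genotype that varies with GC share, so a technical and a biological source of the trend cannot be told apart.

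**Figure D3:**
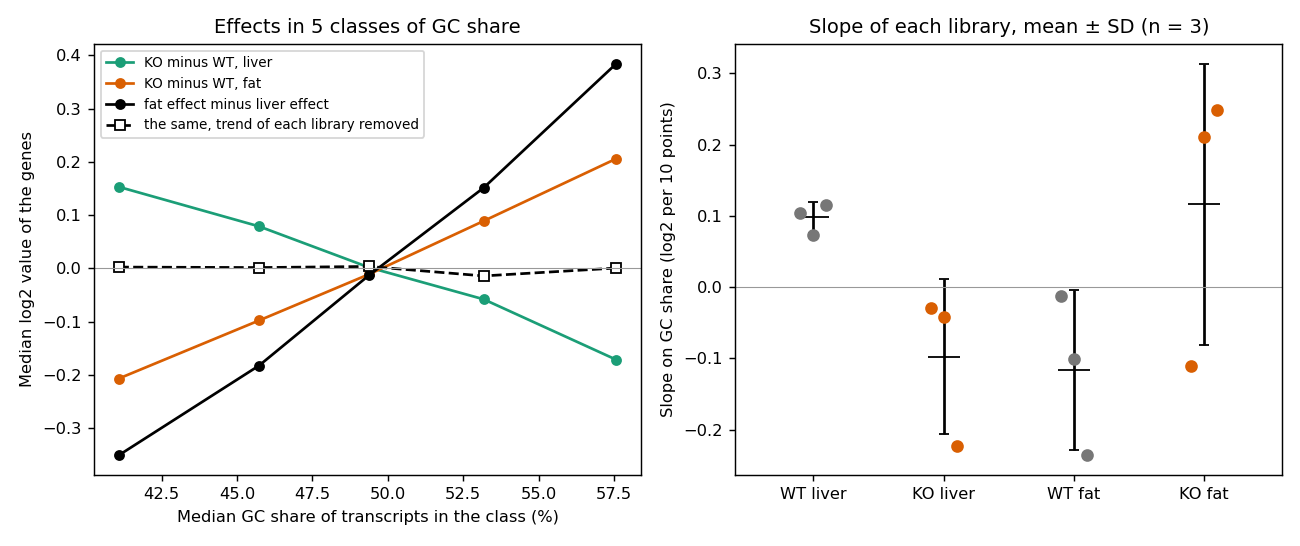
Left, median log2 value over the genes of each of the 5 classes by GC share of the longest transcript (x axis, median GC share in percent), for the liver effect, the fat effect, their difference, and the difference with the library trends removed. The difference runs from −0.35 to 0.38 and is near 0 after the removal. Right, slope of each library on GC share (points, grey for WT and orange for KO) with the group mean and SD (bars, n = 3). KO lies below WT in liver, and KO_WAT2 and KO_WAT3 lie above WT in fat.

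Among gene lists, those of fatty acid metabolism were among the highest in their medians. Over all tested genes the median difference was −0.00 and 49.8% of genes were above 0, and no list had a member called by edgeR. In fatty acid and triglyceride synthesis, 19 of 24 genes were above 0, with a median of 0.52 (0.37 with the trend removed), and 8 of them against 0 below 0 had an unadjusted p under 0.05. The median effect was −0.01 in liver and 0.75 in fat, so this list's difference came from fat.

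Acly, the ATP citrate lyase that supplies acetyl-CoA for lipogenesis, had 368, 545 and 451 CPM in WT liver, 564, 373 and 536 in KO liver, 216, 213 and 239 in WT fat and 663, 828 and 566 in KO fat. The liver groups overlapped fully and the fat groups stood apart. In fat it rose by 1.64 ± 0.21 on the log2 scale (edgeR adjusted p = 0.0142), a call made in 22 of 28 alternative fits and lost, among others, with fat fitted alone (adjusted p = 0.0708), without WT_WAT2 (0.137) and without KO_WAT2 (0.0523). Its difference was 1.49 ± 0.29 (edgeR adjusted p = 0.159, DESeq2 adjusted p = 0.000604). Fasn, the fatty acid synthase, had 837, 1399 and 1120 CPM in WT liver, 1330, 1013 and 868 in KO liver, 1856, 2242 and 2706 in WT fat and 4684, 8838 and 6704 in KO fat. Again the groups overlapped in liver and not in fat, with a difference of 1.62 ± 0.37 (edgeR adjusted p = 0.214, DESeq2 adjusted p = 0.00581). Slc25a1, the mitochondrial citrate carrier, had a difference of 0.96 ± 0.23, and Agpat2, an acyltransferase of triglyceride synthesis, 0.95 ± 0.25. Scd1, the stearoyl-CoA desaturase, had −0.44 ± 0.61 and Thrsp, a lipogenic nuclear protein, 0.22 ± 0.42.

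In fatty acid oxidation and ketogenesis, 31 of 34 genes were above 0, with a median of 0.36 (0.28 and 27 of 34 with the trend removed). Here the liver effect had a median of −0.23 and the fat effect of 0.02. Crat, the carnitine acetyltransferase, had 129, 125 and 126 CPM in WT liver, 64.3, 51.0 and 82.3 in KO liver, 320, 298 and 244 in WT fat and 280, 365 and 298 in KO fat. Its liver groups stood apart and its fat groups overlapped, with a difference of 1.05 ± 0.25 (edgeR adjusted p = 0.214, DESeq2 adjusted p = 0.0161). Acot2, a mitochondrial acyl-CoA thioesterase, had a difference of 1.84 ± 0.49, and Cpt2, the inner carnitine palmitoyltransferase, 0.57 ± 0.17. Oxct1, the enzyme that uses ketone bodies, had −0.98 ± 0.35.

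Of 25 genes of fatty acid uptake and lipoproteins, 22 were above 0, with a median of 0.48 (0.36 with the trend removed). The list holds lipoprotein genes made by hepatocytes, and Apoa2 and Apob are also among the hepatocyte markers. The 11 hepatocyte markers, read in fat as well, were all above 0 with a median difference of 0.40 and a median effect in fat of 0.55, and their part in this list was not tested. Slc27a4, a fatty acid transport protein, had the lowest p, with a difference of 0.48 ± 0.16 (edgeR adjusted p = 0.251). Angptl8, an insulin-induced regulator of lipoprotein lipase, had 1.96 ± 0.65. In lipid droplet and lipolysis genes, 14 of the 18 with reads in every group were above 0, with a median of 0.43 (0.25 with the trend removed). G0s2, the inhibitor of adipose triglyceride lipase, had 300.0, 251 and 215 CPM in WT liver, 182, 95.5 and 137 in KO liver, 124, 144 and 124 in WT fat and 149, 149 and 167 in KO fat. Its KO libraries were lower in liver and higher in fat without overlap, with a difference of 1.11 ± 0.27 (edgeR adjusted p = 0.214, DESeq2 adjusted p = 0.0187).

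The genes of oxidative phosphorylation were listed by the genome that encodes them, and those lists were not tested against each other. Of 37 nuclear-encoded subunits, 31 were above 0, with a median of 0.25 (0.15 and 26 of 37 with the trend removed). The fat effect was above 0 in all 37, against 8223 of all 16857 tested genes. The median fat effect of this list was 0.256, and 0.165 with the trend removed. Cox8a, a subunit of cytochrome oxidase, had a difference of 1.04 ± 0.27 and Uqcrq, a subunit of complex III, 0.78 ± 0.21 (edgeR adjusted p = 0.214 and 0.218). Of 13 mitochondrially encoded genes, 11 were below 0, with a median of −0.37. These have a median GC share of 37.1%, and with the trend removed the median turned to 0.12, with 11 of 13 above 0. mt-Nd5, a subunit of complex I, had the lowest p of that list with −0.42 ± 0.21 (edgeR adjusted p = 0.399), and 0.03 with the trend removed.

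Glycolysis, gluconeogenesis and glucose uptake had 19 of 28 genes above 0 (median 0.26, and 0.11 with the trend removed). Pfkl, the liver phosphofructokinase, had a difference of 0.74 ± 0.19 (edgeR adjusted p = 0.214), and 0.38 with the trend removed. Pentose phosphate and NADPH genes had 7 of 10 above 0 (median 0.41, and 0.22 with the trend removed), with Pgls, the 6-phosphogluconolactonase, at 0.52 ± 0.15, and at 0.15 with the trend removed. In amino acid breakdown and the urea cycle, 18 of 22 were above 0 (median 0.29, and 0.21 with the trend removed), and Gpt, an alanine aminotransferase, had 0.84 ± 0.21 (edgeR adjusted p = 0.214, DESeq2 adjusted p = 0.0161), and 0.38 with the trend removed. Cholesterol synthesis had a median of 0.10 with 15 of 23 above 0, and its lowest p was that of Pmvk, the phosphomevalonate kinase, at 0.95 ± 0.39 (edgeR adjusted p = 0.332).

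Lists of genes made by hepatocytes need the level of liver transcripts in fat beside them. Xenobiotic metabolism had 22 of the 27 genes with reads in every group above 0 (median 0.46), bile acid synthesis and transport 11 of 14 (median 0.23), and 0 members of either list had an unadjusted p under 0.05. Those levels are given by the hepatocyte markers above, and their part in both lists was not tested. Acute phase genes had a median of 0.10 with 16 of 26 above 0. Saa1, an acute phase apolipoprotein, had 9.34, 16.7 and 10.1 CPM in WT liver, 20.4, 23.5 and 20.99 in KO liver, 0.127, 0 and 0.138 in WT fat and 1.02, 0.639 and 1.01 in KO fat. KO was above WT in both tissues without overlap, with a difference of 2.34 ± 0.66 (edgeR adjusted p = 0.229). All WT fat libraries lay under the floor of 3 counts, and KO fat lay only at 0.639 to 1.02 CPM. Complement and coagulation had a median of 0.08, with 19 of 32 genes above 0.

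Before the trend was removed, signalling and identity lists had medians closer to that of all genes than the lists of fatty acid metabolism had. With the trend removed this did not hold for thermogenic fat. Insulin signalling had a median of −0.14 (−0.03 with the trend removed) with 15 of 25 below 0. Of its genes, 5 below 0 and 0 above 0 had an unadjusted p under 0.05 in edgeR's test. Grb14, an adaptor that inhibits the insulin receptor, had −0.79 ± 0.24 (edgeR adjusted p = 0.235). Growth hormone and male-biased liver genes had a median of −0.08 (0.06 with the trend removed), and Stat5a, a transcription factor of growth hormone signalling, had 0.78 ± 0.24 (edgeR adjusted p = 0.235). Genes of adipocyte identity with reads in every group had a median of −0.06, those of thermogenic fat −0.19 (−0.33 with the trend removed), and growth factors and receptors −0.03. At an unadjusted p under 0.05 in edgeR's test, adipocyte identity had 5 genes above 0 and 1 below. Growth factors and receptors had 1 above and 5 below. The extracellular matrix had a median of 0.10 (−0.06 with the trend removed) and the circadian clock 0.10 (0.02). Rora, a nuclear receptor of the clock, had −0.46 ± 0.14 (edgeR adjusted p = 0.237), and −0.04 with the trend removed. In the unfolded protein and stress response, with a median of −0.07, Asns, the asparagine synthetase, had 1.29, 0.386 and 0.608 CPM in WT liver, 1.72, 2.25 and 3.78 in KO liver, 83.0, 61.4 and 48.0 in WT fat and 59.4, 70.7 and 53.1 in KO fat. Its liver groups did not overlap and its fat groups did, with a difference of −1.86 ± 0.52 (edgeR adjusted p = 0.229, DESeq2 adjusted p = 0.0254).

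Cell cycle genes were mostly below 0, with 19 of the 23 with reads in every group and a median of −0.24 (−0.38 with the trend removed), and 0 of them had an unadjusted p under 0.05. Nusap1, a spindle protein, had the lowest p at −1.17 ± 0.58 (edgeR adjusted p = 0.404). All 13 B cell and lymph node markers with reads in every group were also below 0 (median −1.28). So were 8 of 13 T and NK cell markers (median −0.83) and 9 of 13 macrophage and Kupffer markers (median −0.07). Of the B cell and lymph node markers, 0 had an unadjusted p under 0.05 in edgeR's test, and the lowest adjusted p was 0.479. Their median effect was 0.57 in liver and −0.68 in fat. In liver these markers summed to only 13.9 to 26.5 CPM in WT and 20.4 to 43.7 CPM in KO. In fat the sums overlapped, at 273, 1100 and 1411 CPM in WT and 1443, 643 and 1266 CPM in KO. The T and NK cell markers summed to only 8.11 to 12.3 CPM in WT liver and 9.68 to 12.3 CPM in KO liver. The part of immune cells in the cell cycle list was not tested.

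**Figure D4:**
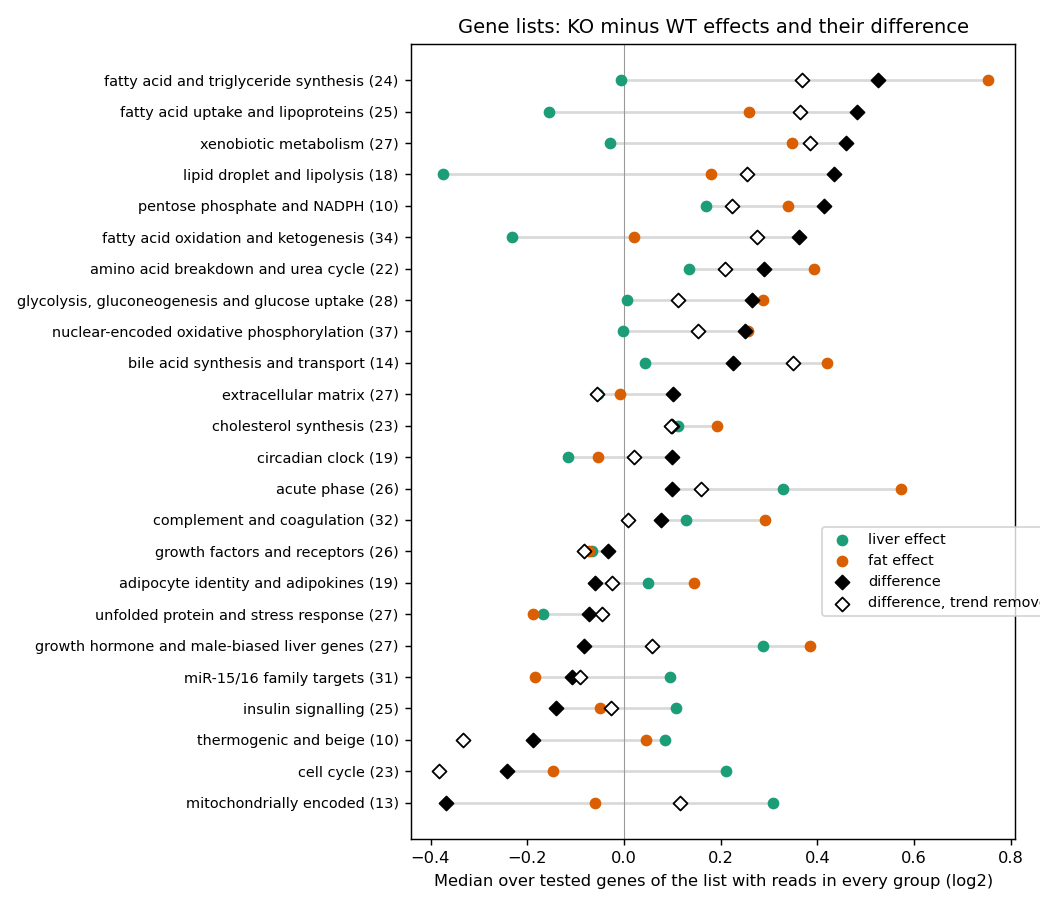
Median over the tested genes of each list with reads in every group (number in brackets) of the KO minus WT effect in liver (green), in fat (orange), of their difference (filled diamond) and of the difference with the library trends removed (open diamond), on the log2 scale. Fatty acid synthesis, fatty acid uptake and xenobiotic metabolism have the highest medians of the difference (0.52, 0.48 and 0.46), and the mitochondrially encoded list changes sign with the removal.

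By size, the largest differences among genes with opposite directions and no overlap in either tissue, at a mean log2 CPM of at least 1, included low levels in one tissue. Nat8l, which makes N-acetylaspartate, had 51.6, 48.4 and 30.6 CPM in WT fat and 69.3, 127 and 72.4 in KO fat, while its liver levels were 0.203, 0.258 and 0.203 CPM in WT and 0 in all 3 KO libraries, at the floor of 3 counts. Phlda3, a p53-induced repressor of Akt, had 1.90, 2.25 and 1.28 CPM in WT liver, 0.396, 0.750 and 0.675 in KO liver, 112, 198 and 146 in WT fat and 207, 227 and 277 in KO fat, a difference of 2.18 ± 0.43 (edgeR adjusted p = 0.194, DESeq2 adjusted p = 0.00173). Extl1, a heparan sulphate glycosyltransferase, had a difference of 1.81 ± 0.39. Brip1, a DNA repair helicase, had −1.88 ± 0.48. Cxcl1, a neutrophil chemokine, had 3.86, 4.51 and 2.30 CPM in WT liver, 6.01, 5.45 and 7.56 in KO liver, 1.90, 2.57 and 2.06 in WT fat and 1.16, 1.21 and 1.13 in KO fat, a difference of −1.75 ± 0.43 (edgeR adjusted p = 0.214).

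Sites for the cluster's microRNAs were looked for in the longest annotated 3′ untranslated region of 14200 genes, as the letters TGCTGCT for miR-322, CGCTGCT for miR-503 and CTCAGGG for miR-351 on the transcribed strand. A site was found in 3434 genes for miR-322 (24.2%), 687 for miR-503 (4.84%) and 2225 for miR-351 (15.7%). Of the 16 genes with the lowest p, 4 had a miR-322 site, 1 a miR-503 site and 4 a miR-351 site. The windows below are from Xiap and Tmem123 (differences below 0) and from Esrra and Gpd1 (above 0), shown because sites occurred on both sides. Capitals mark the letters complementary to the seed, and each is written on the gene's strand on GRCm38.
Xiap miR-322 site, chrX:42108556-42108578, plus strand: tcagttaagagtactTGCTGCTt
Xiap miR-503 site, chrX:42105385-42105407, plus strand: gaaagaactgccccaCGCTGCTg
Tmem123 miR-322 site, chr9:7792885-7792907, plus strand: tgaagactgctgccaTGCTGCTg
Esrra miR-322 site, chr19:6911368-6911390, minus strand: gggtgatgcttttgcTGCTGCTt
Gpd1 miR-351 site, chr15:99724241-99724263, plus strand: ttatagtttatcgtcCTCAGGGc
Esrra had a second miR-322 match that overlaps the one shown. Also not shown are a miR-351 site in Esrra, one in Tmem123 and another one in Gpd1.

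The median difference was −0.06 in genes with a miR-322 site and 0.02 in those without, and 0.00 and −0.01 with the trend removed. The corresponding effects were 0.02 and 0.00 in liver and −0.04 and 0.01 in fat, and the median GC share was 49.0% with a site and 50.05% without. For miR-503 the medians of the difference were −0.01 with and 0.00 without a site, and for miR-351 0.04 and −0.01. The list of known miR-15/16 family targets had 19 of 31 genes below 0 and a median of −0.11 (−0.09 with the trend removed), with a median effect of 0.10 in liver and −0.18 in fat. Its lowest p was that of Ccnd3, the cyclin D3 of the G1 phase, which had 33.4, 35.9 and 38.9 CPM in WT liver, 31.8, 25.2 and 25.6 in KO liver, 88.2, 107 and 84.4 in WT fat and 98.8, 144 and 146 in KO fat. KO was below WT in liver without overlap and the fat groups overlapped, with a difference of 0.84 ± 0.23 (edgeR adjusted p = 0.218).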

How the data were processed

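Total RNA went into a directional NEBNext library kit, per the labels' protocols. CASAVA 1.8, HISAT2 and the builds GRCm38 and mm10 are given per the submitters' processing notes. Which program counted the reads, on which strand and against which annotation, is not given in the sources used here. The deposited table holds whole-number read counts per gene and library, not normalised by the authors as far as the values show. Reads of near-identical or overlapping antisense genes cannot be told apart.

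From the counts, 1 model of all 12 libraries was fitted by the robust quasi-likelihood F test of edgeR 4.0.16 in R 4.3.3, with TMM scaling, the filterByExpr filter and no covariate, and with Benjamini-Hochberg adjustment over all tested genes and 0.05 as threshold. P-values per gene are from this test unless DESeq2 1.42.0 or limma 3.58.1 (voom) is named. Log2 values are given ± SE and levels as CPM. GC share and length are those of the longest transcript in GENCODE M21, and each library's trend on them was removed as lowess offsets (span 0.3). At these depths 3 counts in a library are 0.188 to 0.206 CPM, which covers counting error only. The fits were tested on simulated data. No pair of libraries of the same group agreed within counting noise, and pairs across groups were not compared.

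Genes were named by rule: 8 in each direction by p in the difference at a mean log2 CPM of at least 1, the member of each list with the lowest p, the cluster, and 6 genes by size among those with opposite directions and no overlap. Not all genes that the rule takes are reported here. Slc25a1, Agpat2, Acly, Fasn, Scd1, Thrsp, Crat, Acot2, Cpt2, Oxct1, Angptl8 and Uqcrq were chosen after their values were seen. The contrast, the trend on GC share and length, the 25 pathway lists and the 12 marker lists were chosen with earlier results of these data known. Alternatives were other size factors, filters, tools and thresholds, tissues fitted alone, a replicate block, removal of the trend and leaving out each library. Added after seeing the data were DESeq2 with the trend removed and fits that omit the 2 fat libraries highest in Alb.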

Additional observations from a re-analysis of the deposited data

Results flagged for a closer look

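The slope of the libraries on GC share differed between the tissues in its KO minus WT effect by 0.427 on the log2 scale per 10 points of GC share. By a test of the difference itself (exact permutation within tissues, p = 0.015, adjusted p = 0.04 over 4 measures), the effect was −0.195 in liver and 0.232 in fat. Leaving out each library in turn gave 0.360 to 0.542 with exact permutation p from 0.005 to 0.06. It was at 0.055 without WT_WAT2 and at 0.06 without WT_WAT3. These p-values test a trend that earlier results of the same libraries had already shown, and the adjustment does not account for that.

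The slope on transcript length differed in the same contrast by −0.0952 per doubling of length (exact permutation p = 0.02, adjusted p = 0.04), with effects of 0.0177 in liver and −0.0775 in fat.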

How the results depend on the processing

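In the difference, edgeR called 0 genes with DESeq2 size factors, upper quartile factors, TMM within each tissue, both stricter filters and no robust step. It also called 0 with the trend on GC share and length removed and at an adjusted p under 0.1. limma voom called 0 as well, with or without group weights. Without a filter edgeR called 21 (14 higher, 7 lower). DESeq2 called 199 (125 higher, 74 lower), and 31 with the trend removed (21 and 10). Without the 2 fat libraries highest in Alb there were 713 calls (515 and 198), and 64 with the trend also removed (60 and 4). Leaving out 1 library gave 0 to 34 calls (0 to 32 higher, 0 to 9 lower), with 34 without WT_WAT1, 25 without KO_WAT1, 1 without WT_liver1 and 0 in the other 9 fits. List members called, 0 by edgeR, were 5 without a filter, 21 with DESeq2 (5 with the trend removed), 64 without the 2 fat libraries (14 with the trend removed) and 0 to 6 without 1 library. Genes called in liver, 1 by edgeR, were 8 without a filter, 28 with DESeq2, 38 with DESeq2 and the trend removed, 13 with voom and group weights, 21 with liver fitted alone and 1 to 2 without 1 library. Genes called in fat, 3 by edgeR, were 23, 79 and 50 in the first 3 of these, 7 with voom, 1 without the robust step, 7 at an adjusted p under 0.1, 0 with fat fitted alone, 376 without the 2 fat libraries (121 with the trend removed) and 1 to 52 without 1 library (52 without WT_WAT1, 14 without KO_WAT1 and 1 without WT_WAT2 or KO_WAT2). The cause of these changes was not tested.

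The Spearman correlation of the difference with GC share, 0.47, was 0.21 without a filter, 0.62 with at least 1 CPM in 3 libraries of each tissue and 0.39 to 0.51 without 1 library. With the trend removed it was −0.00149, −0.00724 in DESeq2 and 0.0238 without the 2 fat libraries. The correlation with length, −0.16, was −0.0543 without a filter and −0.17 to −0.10 without 1 library. With the trend removed it was −0.0127, −0.0105 in DESeq2 and −0.0419 without the 2 fat libraries. Of 1297 values of 45 named genes under the alternatives, 15 had the opposite sign, all in 3 genes. With the trend removed mt-Nd5 was at 0.034, 0.047 in DESeq2, 0.033 with the replicate block and 0.18 without the 2 fat libraries, where Rora was at 0.025. Mir351, near 0, was at 0.041 with the trend removed, 0.037 in DESeq2, 0.23 without the 2 fat libraries, 0.44 with both, and −0.62 to 0.17 without 1 library, above 0 without WT_liver2, WT_liver3, KO_liver2, WT_WAT1, KO_WAT1 or KO_WAT3.

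Replicate numbers showed no clear pairing of liver and fat libraries by correlation. The deviations of liver and fat libraries of the same genotype and number correlated at 0.10, 0.06, −0.00, −0.11, 0.06 and −0.13 across 9321 genes. Of 6 liver libraries, 1 correlated best with its own number. Whether same-numbered libraries came from the same animal cannot be read from this, as deviations need not be shared between tissues. WT and KO libraries of the same number correlated at −0.11 to 0.08 in liver and −0.02 to 0.35 in fat, highest for WT_WAT2 with KO_WAT2. With the replicate block by genotype and number, 0 genes were called in the difference (1790 at an unadjusted p under 0.05). With the block by number within tissue, 0 were called in the difference (1782 unadjusted), 0 in liver and 1 in fat. With the block and the trend removed, 0 were called (968 unadjusted), with correlations of 0.00121 on GC share and −0.0155 on length. With a median standard error of 0.35 on the log2 scale, small differences were not detectable with 3 libraries a group.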
